A study of Mus musculus with 6 samples.

Results

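The pore-forming alpha-1 subunits of voltage-gated calcium channels were examined in total RNA of mouse primary cortical neurons. The 8 genes Cacna1a, Cacna1b, Cacna1c, Cacna1d, Cacna1e, Cacna1g, Cacna1h and Cacna1i were chosen by name out of 55385 genes counted. All 8 passed the filter on low counts. Cortical neurons were isolated from embryos at embryonic day 18 and harvested after 16 days in vitro, and every culture had AraC (2.5 uM, 24 hours from day 2), which blocks DNA replication and so holds back proliferating cells. The 3 libraries labelled control had no other treatment, and for the 3 labelled activated KCl was applied for 5 minutes to depolarise the cells, then washed off, with 30 minutes of recovery before harvest. The labels state the KCl concentration as 50 mM in one place and 50 uM in another. Mouse strain, and whether the replicates were separate cultures, are not stated in the sources used here, and the tests speak of the spread among these 6 libraries alone, which may be technical.

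Voltage-gated calcium channels open when the membrane is depolarised and let calcium into the cell, where it triggers transmitter release, shapes firing and starts signalling to the nucleus. The alpha-1 subunit forms the pore from 4 homologous repeats and sets the channel type. Cav1 channels (L-type; Cacna1c and Cacna1d) couple calcium entry to gene transcription, Cav2 channels (P/Q-, N- and R-type; Cacna1a, Cacna1b and Cacna1e) supply the calcium for transmitter release at many synapses, and Cav3 channels (T-type; Cacna1g, Cacna1h and Cacna1i) open near the resting potential and support burst firing. Cav1 and Cav2 channels need strong depolarisation and bind auxiliary beta and alpha2delta subunits, which bring the pore to the membrane and tune its gating.

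The division between the classes can be read in the transcripts. Each line gives 27 bases of coding sequence (GENCODE M21 transcripts, mm10, 5′ to 3′) around the selectivity filter of the third repeat, with the codon of the acidic filter residue in capitals. They are shown because this residue sets the T-type genes apart from the others.
Cacna1a: gtgtccacaggaGAGggctggccacag
Cacna1b: gtgtccacgggaGAGgggtggcccatg
Cacna1c: gtctccaccttcGAAgggtggccagag
Cacna1d: gtctcaacttttGAGggctggcccgcg
Cacna1e: gtctctacagggGAAggatggcctcag
Cacna1g: ctggcctccaagGATggctgggttgac
Cacna1h: ctgtcatccaagGATggctgggtaaac
Cacna1i: ttggcctccaagGATggctgggtgaac
The codon is GAG or GAA, for glutamate, in the 5 Cav1 and Cav2 genes and GAT, for aspartate, in the 3 Cav3 genes. Between Cav3 genes 23 or 24 of the 27 bases were identical, among the Cav1 and Cav2 genes 17 to 22, and across the division 11 to 15. In the Cav3 genes the stretch lies in 1 exon, at chr11:94426459-94426485 (minus strand) for Cacna1g, chr17:25383496-25383522 (minus strand) for Cacna1h and chr15:80376795-80376821 (plus strand) for Cacna1i. In the 5 other genes it is split over 2 exons.

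The comparison asked how transcripts differed between the libraries labelled activated and those labelled control. All 14 rapid activity-induced genes listed were lower under the activated label, so each direction given here rests on the labels. All 8 alpha-1 genes had a higher mean in the libraries labelled activated, by 8.11% to 19.3%, and 4 of them were called higher: Cacna1a, Cacna1d, Cacna1g and Cacna1h (edgeR quasi-likelihood test, Benjamini-Hochberg adjusted p below 0.05 over 18132 tested genes). None was called lower. The differences were small: by absolute log2 fold change, counted from the largest, the members ranked 9496 to 14122 of the 18132 tested genes. Their mean levels lay above those of 89.4% to 99.4% of tested genes. Of all tested genes 36.8% were called, 16.2% higher and 20.6% lower. The median log2 fold change of the 8 genes was 0.16, beside 0.04 over all tested genes. Their summed level was 1950 ± 56.5 CPM (SD, n = 3; CPM are counts relative to library size, scaled by TMM) under the control label and 2177 ± 30.5 CPM (SD, n = 3) under the activated label, and the groups did not overlap (exact two-sided permutation p = 0.1, the smallest that 3 against 3 allows). For 7 of the 8 genes every library labelled activated lay above every library labelled control, which held for 22.6% of all tested genes. The groups of 26.4% of tested genes were separated in the lower direction, and those of 49% in either.

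Only Cacna1a and Cacna1g passed under each of the 16 alternative settings, and the other calls moved with the scaling, the filter or a library left out. With total counts in place of TMM, Cacna1a (0.17) and Cacna1g (0.18) were the only members called, whereas all 8 were called when libraries were scaled to neuron markers (0.40 to 0.55, beside a median of 0.33 over all tested genes) or when the genes tested were restricted to at least 1 CPM in 3 libraries (0.15 to 0.29). The split of all called genes moved with scaling too, from 2945 higher and 3733 lower to 2089 and 4576 with total counts and to 8523 and 740 with neuron markers. With the 1 CPM filter, 3341 of 15333 tested genes were called higher and 3356 lower. The estimates of all 8 members stayed above 0 in every setting run.

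**Figure D1:**
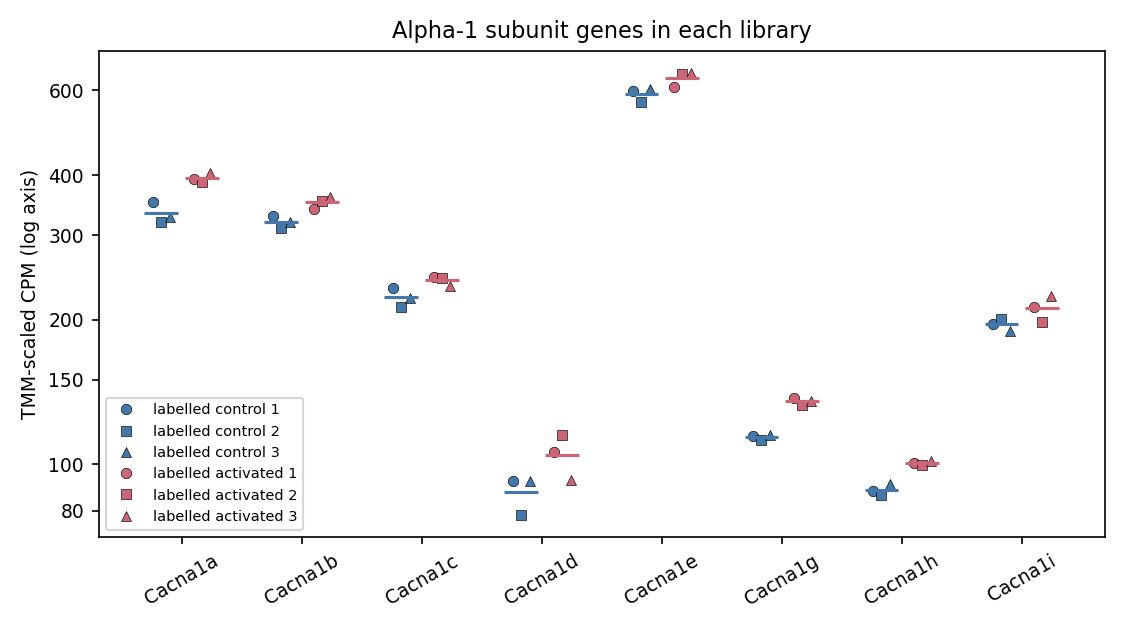
TMM-scaled CPM on a log axis for each alpha-1 gene in the 3 libraries labelled control (blue) and the 3 labelled activated (red). Symbols mark replicate numbers and lines the group means. The groups overlap only for Cacna1i. The gap in absolute CPM, which the log axis does not show to scale, is largest for Cacna1a, at 35.5 CPM.

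Gene identifiers below are those of the count files, and coordinates are those of GENCODE M21 (mm10), where the identifiers of Cacna1a, Cacna1c, Cacna1d and Cacna1e carry an earlier version number. Among the Cav2 genes, Cacna1a encodes the pore of P/Q-type channels, the main calcium source for release at many central synapses (ENSMUSG00000034656.18, chromosome 8, 84388440 to 84640246, plus strand). It stood at 351, 320 and 327 CPM in labelled control replicates 1, 2 and 3 and at 392, 386 and 404 CPM in labelled activated replicates 1, 2 and 3. Every activated library was thus above every control library. The estimated log2 difference was 0.24 ± 0.06 (SE; edgeR adjusted p = 0.00756).

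Cacna1b encodes the N-type pore, which also serves transmitter release (ENSMUSG00000004113.18, chromosome 2, 24603887 to 24763152, minus strand). Its values were 328, 310 and 319 CPM in replicates 1 to 3 labelled control and 339, 353 and 361 CPM in those labelled activated. The groups did not overlap, yet the difference did not pass (log2 fold change 0.14, 95% interval 0.01 to 0.27; edgeR adjusted p = 0.0875).

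Cacna1e encodes the R-type pore and had the most reads of the family (ENSMUSG00000004110.17, chromosome 1, 154390731 to 154884501, minus strand). It stood at 598, 568 and 603 CPM in replicates 1 to 3 labelled control and 611, 649 and 653 CPM in those labelled activated. The lowest activated library exceeded the highest control library by 8.01 CPM, a small gap for this level. With a log2 fold change of 0.11 (95% interval −0.02 to 0.25; edgeR adjusted p = 0.176) it did not pass.

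Of the Cav1 genes, Cacna1c encodes the L-type pore that is the more abundant in brain (ENSMUSG00000051331.16, chromosome 6, 118587240 to 119196418, minus strand). Its values were 233, 213 and 222 CPM in replicates 1 to 3 labelled control and 245, 245 and 235 CPM in those labelled activated. The groups were separated by 1.95 CPM, and the log2 fold change of 0.12 (95% interval −0.01 to 0.25) did not pass (edgeR adjusted p = 0.142).

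Cacna1d encodes the L-type pore that opens at less depolarised potentials (ENSMUSG00000015968.18, chromosome 14, 30039939 to 30491455, minus strand). It stood at 92.4, 78.5 and 92.2 CPM in replicates 1 to 3 labelled control and 106, 115 and 92.7 CPM in those labelled activated. Activated replicate 3 was level with 2 of the controls, so that the groups were 0.3 CPM from overlapping. Cacna1d had the largest estimate of the family, at 0.25 ± 0.09 on the log2 scale (SE; edgeR adjusted p = 0.0307), and also the widest spread, with coefficients of variation of 9.07% and 10.9% in the 2 groups. The call was lost without activated replicate 2 (0.18), control replicate 2 (0.20) or activated replicate 1 (0.24), and the estimate rose to 0.34 without activated replicate 3. Over the 16 alternatives Cacna1d was called in 9, with adjusted p from 0.000187 to 0.132.

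Of the Cav3 genes, Cacna1g and Cacna1h varied least between replicates of all members. Cacna1g, a T-type pore of burst-firing neurons (ENSMUSG00000020866.17, chromosome 11, 94408391 to 94474198, minus strand), stood at 114, 112 and 115 CPM in replicates 1 to 3 labelled control and 137, 133 and 135 CPM in those labelled activated. Coefficients of variation were 1.42% and 1.58%, and the distance between the groups, 17.8 CPM, was several times the range within each. The estimated log2 difference was 0.25 ± 0.06 (SE; edgeR adjusted p = 0.00406, the smallest of the family).

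Cacna1h, the T-type pore best known from sensory neurons and thalamus (ENSMUSG00000024112.16, chromosome 17, 25374285 to 25433783, minus strand), stood at 88.0, 86.5 and 91.0 CPM in replicates 1 to 3 labelled control and 101, 99.9 and 102 CPM in those labelled activated. The groups lay 8.85 CPM apart, and the estimated log2 difference was 0.19 ± 0.06 (SE; edgeR adjusted p = 0.0204). It was called in 11 of the 16 alternatives, with adjusted p from 2.13e-05 to 0.121, and lost the call without activated replicate 1 (0.18).

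Cacna1i, the T-type pore with the slowest kinetics (ENSMUSG00000022416.15, chromosome 15, 80287238 to 80398279, plus strand), was the one member whose groups overlapped. Its values were 196, 201 and 189 CPM in replicates 1 to 3 labelled control and 213, 198 and 224 CPM in those labelled activated, where activated replicate 2 fell within the control range. The log2 fold change was 0.11 (95% interval −0.02 to 0.25; edgeR adjusted p = 0.172).

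Each class held called and uncalled genes, with calls in 1 of 3 Cav2, 1 of 2 Cav1 and 2 of 3 Cav3 genes, beside 16.2% of all tested genes called higher. All 28 pairwise correlations of log2 CPM over the 6 libraries were positive, with a median Pearson r of 0.80. The highest was 0.98, between Cacna1g and Cacna1h, and the lowest 0.07, between Cacna1d and Cacna1i. These coefficients include the difference between the groups, rest on 6 libraries that the genes share, and are given as a description.

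All members lie in long genes, from 59.5 kb (Cacna1h) to 609 kb (Cacna1c) of genome. Genes at least as long as the shortest member numbered 3971 among those tested. Of these 19.7% were called higher and 20.9% lower, around a median log2 fold change of 0.04. By longest transcript, 962 tested genes were at least as long as the shortest member, with 22.9% called higher and 21% lower. With offsets for transcript length and GC content, Cacna1a (0.26), Cacna1g (0.26) and Cacna1h (0.22) were called and Cacna1d was not (0.22). Also not called were Cacna1b (0.11), Cacna1c (0.07), Cacna1e (0.06) and Cacna1i (0.13). In the setting reported these stood at 0.14, 0.12, 0.11 and 0.11.

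Exons overlapped a gene of the opposite strand in 3 members: Cacna1a with the antisense gene Gm16183 over 435 bases, Cacna1d with Chdh over 589 bases and Cacna1h with Tpsg1 over 158 bases. Counts were taken by strand, and reads on the opposite strand made up at most 1.17% of a member's reads, a value reached by Cacna1c in activated replicate 1. In unstranded counts Cacna1a (0.21) and Cacna1g (0.21) were called, and Cacna1d (0.21) and Cacna1h (0.15) were not.

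Levels between genes were compared per kilobase of merged exons. In labelled control libraries Cacna1b stood highest at 32.1 ± 0.895 CPM per kb (SD, n = 3), followed by Cacna1a at 29.1 ± 1.41, Cacna1e at 23.4 ± 0.761 and Cacna1i at 19.8 ± 0.609 CPM per kb. Below them came Cacna1g at 11.2 ± 0.160, Cacna1c at 10.5 ± 0.471, Cacna1h at 9.07 ± 0.237 and Cacna1d at 6.95 ± 0.630 CPM per kb. The 3 Cav2 genes therefore led, and Cacna1i stood at 1.53 to 1.84 times Cacna1g within each library. The order of means was the same in labelled activated libraries. Neighbours in this order did not overlap within either group, apart from Cacna1b and Cacna1a, which overlapped in the activated libraries and changed places in 1 of the 6.

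The choice of length moved this order, because merged exons count every annotated isoform and reach 25.2 kb in Cacna1e and 21.2 kb in Cacna1c. Per kilobase of the longest transcript, Cacna1a led at 42.0 ± 2.03 CPM per kb in labelled control (SD, n = 3), ahead of Cacna1e at 39.5 ± 1.29, with which it overlapped, and Cacna1b at 32.8 ± 0.914 CPM per kb. Cacna1c (16.9 ± 0.759 CPM per kb) then stood above Cacna1g (13.6 ± 0.194 CPM per kb), while Cacna1i kept its place and Cacna1h and Cacna1d last. On both scales the Cav2 genes held the first 3 places.

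The share of each gene in the reads of the family does not depend on scaling between libraries. Family reads numbered 36038 to 70328 per library. Cav2 genes took 63.7 ± 0.221% of them in labelled control and 63.5 ± 0.848% under the activated label (SD, n = 3), Cav3 genes 20.4 ± 0.651% and 20.6 ± 0.688%, and Cav1 genes 15.9 ± 0.431% and 15.9 ± 0.930%. The class shares of the 2 groups overlapped, and the differences were smaller than the spread between replicates (exact permutation p = 0.8, 1 and 1).

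For 3 genes the read shares were separated: the 2 groups did not overlap. Cacna1a took 17.5%, 16.9% and 16.7% of family reads in labelled control and 18.3%, 17.7% and 18.3% in labelled activated replicates 1 to 3. Cacna1g took 5.72%, 5.94% and 5.89% against 6.41%, 6.11% and 6.13%. Cacna1e had the opposite order, at 29.9%, 30.0% and 30.8% for the control label and 28.5%, 29.8% and 29.6% for the activated label. Each of these 3 differences reached the smallest exact two-sided permutation p of the design, 0.1, which became 0.267 when adjusted over the 8 genes, so none passed. The shares of the other 5 genes overlapped. Counted per kilobase, the share of Cacna1b was also lower without overlap, at 22.6 ± 0.0344% for the control label and 22.1 ± 0.420% for the activated label (SD, n = 3).

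**Figure D2:**
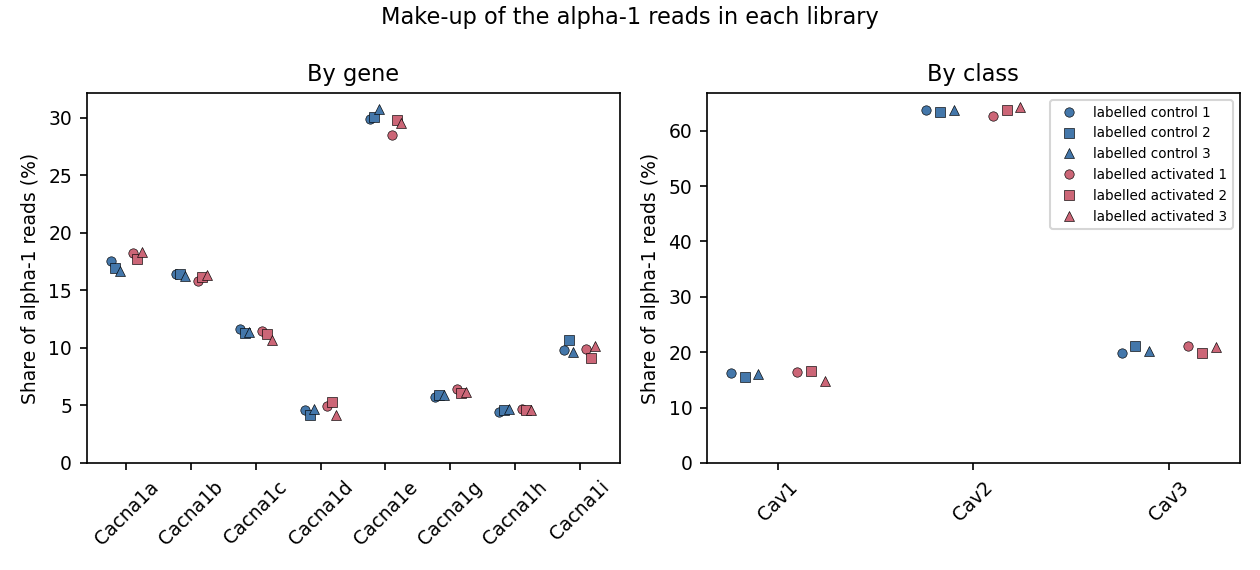
Share of the reads of the 8 alpha-1 genes, in percent, taken by each gene (left) and by each class (right) in the 3 libraries labelled control (blue) and the 3 labelled activated (red). Cacna1e takes the most reads in every library, and the class shares of the 2 groups overlap.

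Among the auxiliary subunits, the cytoplasmic beta subunits, which bind Cav1 and Cav2 pores and promote their surface delivery, had 3 of 4 genes lower and none higher, with a median log2 fold change of −0.31. Over all tested genes, 20.6% were lower and 16.2% higher. Cacnb4 stood at 151, 149 and 161 CPM in replicates 1 to 3 labelled control and 116, 113 and 115 CPM in those labelled activated. It fell by 0.42 on the log2 scale (SE 0.06; edgeR adjusted p = 0.000154), with groups far apart.

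Cacnb1 stood at 93.4, 90.4 and 92.5 CPM against 69.2, 68.3 and 70.5 CPM, again with no overlap, and fell by 0.41 on the log2 scale (SE 0.06; edgeR adjusted p = 0.000151). Cacnb3 went from 80.7 ± 2.12 to 70.0 ± 5.53 CPM (SD, n = 3), with a log2 fold change of −0.21 (edgeR adjusted p = 0.0252) whose call was lost without control replicate 1 (−0.20), control replicate 3 (−0.19), activated replicate 2 (−0.18) or activated replicate 3 (−0.18), and with length and GC offsets (−0.18). Cacnb2 did not pass, at 38.4 ± 3.34 and 38.3 ± 2.15 CPM (SD, n = 3). Under neuron marker scaling no beta gene was called lower: Cacnb1 (−0.12) and Cacnb4 (−0.13) kept their sign without a call, Cacnb3 turned to 0.08, and Cacnb2 was called higher (0.28).

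The alpha2delta subunits are extracellular partners that raise the number of channels at the membrane. Of 5 genes listed, all tested, 1 was higher and none lower, beside 16.2% higher and 20.6% lower of all tested genes. The gene that rose was Cachd1, which encodes a protein related to alpha2delta, from 23.1 ± 1.35 to 31.4 ± 0.879 CPM (SD, n = 3), with a log2 difference of 0.44 (edgeR adjusted p = 0.000448). Cacna2d1, the most abundant of them, stood at 500.2 and 535 CPM on average (log2 fold change 0.10, edgeR adjusted p = 0.249). Cacna2d2 (−0.06), Cacna2d3 (0.08) and Cacna2d4 (0.21) did not pass either. Cacna2d1 (0.39), Cacna2d2 (0.24) and Cacna2d3 (0.37) were called higher under neuron marker scaling, which called 8523 of 18132 tested genes higher. The median log2 fold change over all tested genes in that setting was 0.33. Of the gamma subunit family, most of which are AMPA receptor partners and not parts of neuronal calcium channels, 7 of 8 genes were tested. Beside 16.2% higher and 20.6% lower of all tested genes, 2 were lower and none higher. These were Cacng2 (−0.28) and Cacng4 (−0.23). Under neuron marker scaling they turned to 0.01 and 0.06 with no call, and Cacng4 was also not called when control replicate 1 (−0.21), control replicate 2 (−0.20), activated replicate 1 (−0.18) or activated replicate 2 (−0.20) was left out.

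**Figure D3:**
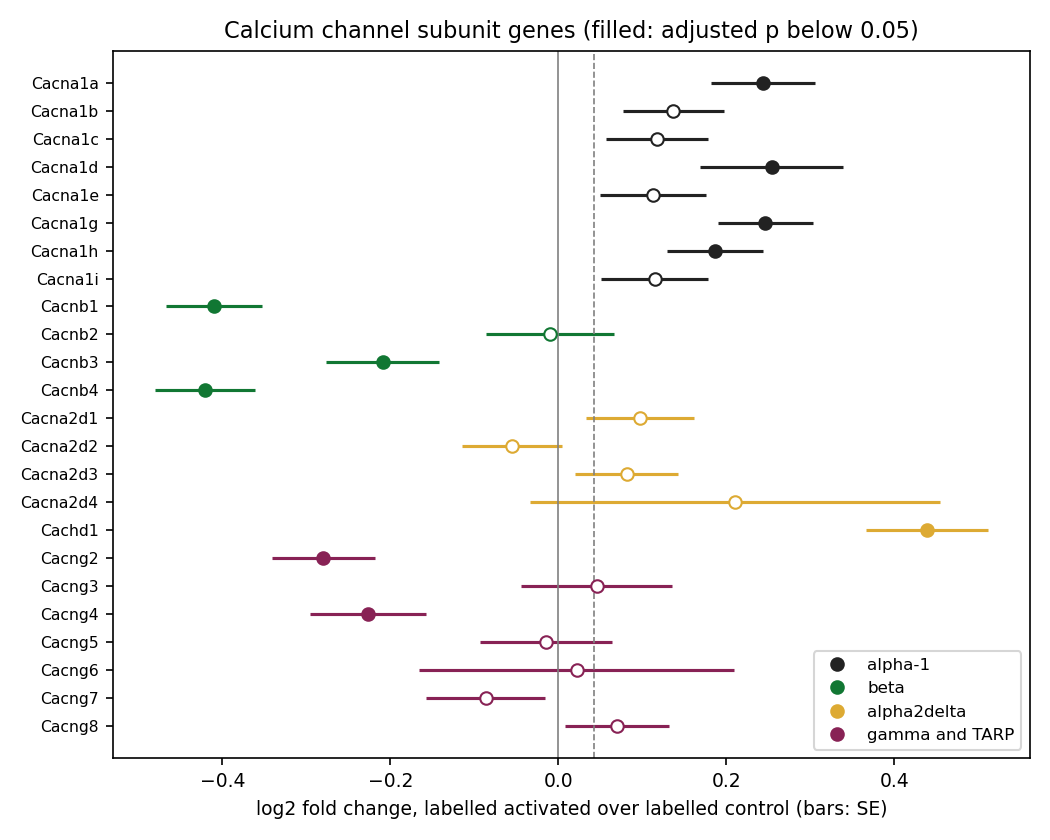
Log2 fold change, labelled activated over labelled control, with its SE for every tested alpha-1, beta, alpha2delta and gamma subunit gene; filled points passed the threshold and the dashed line marks the median of all tested genes, 0.04. The alpha-1 genes lie to the right of the dashed line, and 3 of the 4 beta genes were called lower, beside 20.6% of all tested genes.

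Of 15 channel-binding regulators listed, 14 were tested, 2 rose and 4 fell, beside 16.2% higher and 20.6% lower of all tested genes, and the median log2 fold change was −0.10. The RGK-type GTPases, which inhibit Cav1 and Cav2 currents through the beta subunit, differed in direction: Rem2 stood at 10.4 ± 0.719 and 5.20 ± 0.621 CPM (SD, n = 3; log2 fold change −0.99, edgeR adjusted p = 7.02e-05), and Gem, at a low level, at 1.33 ± 0.177 and 3.07 ± 0.545 CPM (log2 fold change 1.23, edgeR adjusted p = 0.000537). Akap5, an anchoring protein that holds kinase and phosphatase at L-type channels, fell (−0.74), as did the active zone scaffold genes Erc1 (−0.28) and Erc2 (−0.16). Stac3, an adaptor of L-type channels best known in muscle, rose from 2.04 to 3.76 CPM (log2 fold change 0.88). Erc1 and Erc2 turned to 0.01 and 0.13 under neuron marker scaling with no call. Erc2 also lost its call with the 1 CPM filter (−0.13) and without control replicate 1 (−0.17), 2 (−0.16) or 3 (−0.13) or activated replicate 1 (−0.16) or 3 (−0.16).

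The 2 remaining alpha-1 genes were near the detection limit. Cacna1f, of the retina, had 7 reads over the 6 libraries and was not tested, and Cacna1s, of skeletal muscle, stood at 1.32 and 1.46 CPM on average and did not pass. Nalcn, the sodium leak channel related to the alpha-1 family, rose from 192 ± 6.37 to 216 ± 10.05 CPM (SD, n = 3; log2 fold change 0.17, edgeR adjusted p = 0.0403). It was called without activated replicate 2 (0.21) but not without any other single library (0.14 to 0.20), nor with total counts (0.10), unstranded counts (0.14), length and GC offsets (0.12) or no low-count filter (0.15). Among 11 calcium channel genes of intracellular stores and store-operated entry, 3 rose and none fell: Itpr2 (0.82), Ryr3 (0.30) and Ryr1 (0.61). Over all tested genes the shares were 16.2% higher and 20.6% lower. Ryr3 lost its call with total counts (0.23) and without control replicate 2 (0.27) or activated replicate 2 (0.19).

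Over the 6 libraries, genes of very like pattern were found for each called member among 7596 other tested genes with a mean log2 CPM of at least 4. They were Loxl2 and Fn1 for Cacna1a, Meg3 and Papolg for Cacna1d, Wwtr1 and Cdk6 for Cacna1g, and Qk and Nhlrc2 for Cacna1h, with Pearson r from 0.994 to 0.999. Each of these members had an r above 0.95 with 96 to 260 genes, and the values are a description over 6 libraries that the genes share.

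Several features of the libraries were compared between the groups. Reads assigned to genes overlapped, at 22994946 to 32919975 for the control label and 17752711 to 32740171 for the activated label. Reads that matched no annotated exon on the counted strand made up 25.1% to 29.6% of all reads for the control label. For the activated label they made up 28.3% to 37.3%, which overlapped with the control range. Rapid activity-induced genes went against the labels, with 14 of 14 lower in the libraries labelled activated (median log2 fold change −1.19), so each direction given here rests on the labels. Defining neuronal genes were abundant, at 6275 to 6417 CPM summed over 12 pan-neuronal markers for the control label and 5352 to 5924 CPM for the activated label, where 9 were lower and 1 higher. Of 18 inhibitory neuron markers 10 were lower and none higher, and of 16 excitatory ones 8 were lower and 1 higher. The inhibitory markers summed to 2989 to 3121 CPM for the control label and 2360 to 2633 CPM for the activated label. The sum of the excitatory markers went the other way, at 2388 to 2506 and 2512 to 2706 CPM, without overlap. The excitatory marker called higher was Camk2a (log2 fold change 0.36). For all these lists and the markers below, the shares over all tested genes were 16.2% higher and 20.6% lower. Astrocyte markers summed to 1548 to 1601 CPM and 2050 to 2478 CPM, with 14 of 15 tested higher. Markers of endothelial, mural and fibroblast cells summed to 264 to 296 and 410 to 471 CPM (9 of 14 tested higher), those of the oligodendrocyte lineage to 60.8 to 66.0 and 79.7 to 91.2 CPM (4 of 8 higher), and those of microglia to 61.2 to 83.9 and 73.2 to 140 CPM (8 of 13 higher). Of the microglia markers, 1 was higher without overlap of the groups, beside 22.6% of all tested genes. The 8 microglia calls fell to 1 without control replicate 3, without activated replicate 3 and with the replicate block. These settings called 1975, 3304 and 2173 of all tested genes higher. Close to 0 were Gjb6, Cldn5, Tek, Lum, Sox10, Mog, Mag, Mobp, Ermn, Opalin, Enpp6, P2ry12 and Tmem119, at 1 to 25 reads over all libraries. Their part in the higher alpha-1 levels was not tested. In bulk RNA, a different number of cells of a type and a different amount of RNA per cell cannot be told apart.

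**Figure D4:**
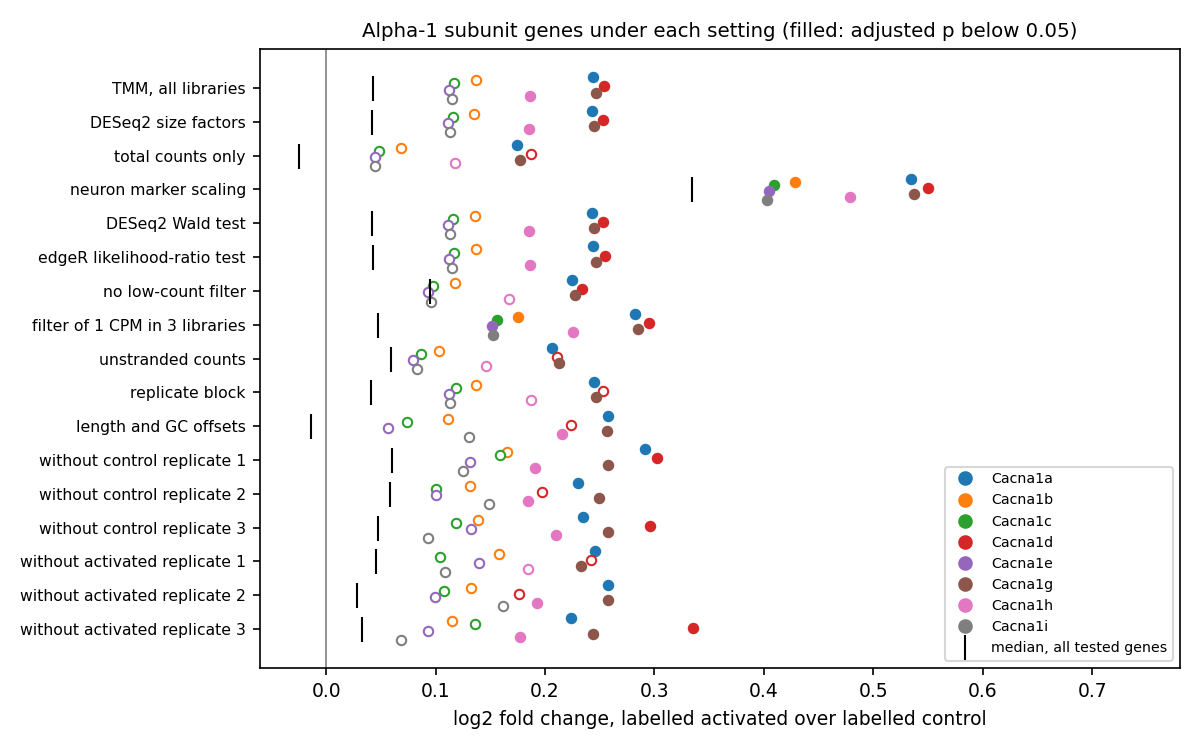
Log2 fold change, labelled activated over labelled control, of the 8 alpha-1 genes in the setting reported (top line) and in 16 alternatives; filled points passed the threshold, and the black tick marks the median of all tested genes in that setting. Cacna1a and Cacna1g are filled on every line, and all points lie above 0.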

How the data were processed

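RNA was extracted with Trizol, depleted of ribosomal RNA and sequenced as strand-specific paired reads of 150 bp, per the labels' protocols. The submitters' processing notes name STAR 2.5.2b, edgeR and the mm10 build. The annotation release was not given in the sources used here. The deposited files hold raw counts per gene, unstranded and for each strand. The reverse-strand column was used, and 4 lines that name no gene were left out (unmapped 7.49% to 9.88%, multimapping 5.17% to 6.35%, ambiguous 0.736% to 0.977% of reads). Symbols, coordinates and transcripts came from GENCODE M21, which held 55144 of 55385 identifiers once versions were set aside.

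A low-count filter (filterByExpr, with 10 as the smallest count and 15 as the smallest total) kept 18132 genes. After TMM scaling, edgeR 4.0.16 in R 4.3.3 gave quasi-likelihood F statistics for a model of group alone, called at a Benjamini-Hochberg adjusted p below 0.05. The SE was taken as |log2 fold change| divided by the root of F, and 95% intervals use the t distribution with the fit's degrees of freedom. Log2 CPM had a prior count of 2. Alternatives used DESeq2 1.42.0 (size factors, Wald test), total counts, scaling to 34 neuron markers, the likelihood-ratio test, other filters, unstranded counts, a replicate block, offsets from splines (4 df) on GC content and length, and each library left out. Levels per kilobase of the longest transcript, and shares per kilobase, were added after the data were seen.

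The members and lists were chosen with earlier results of these data known. Named genes were all members, every tested beta and alpha2delta gene, up to 4 called genes with the smallest p of each other list of the pathway, and the 2 genes most like each called member. Stac3 and Erc2, the other called channel-binding regulators, were named beyond this rule. Cacna1f, Cacna1s and the markers close to 0 were named after their values were seen. Pairwise chi-square statistics showed that no 2 replicates agreed within sampling noise (4.82 to 12.8 per gene). The procedure was tested on simulated counts. Figures used matplotlib 3.10.9.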

Additional observations from a re-analysis of the deposited data

How the results depend on the processing

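The count of alpha-1 genes called higher, 4 in the setting reported, was 2 with total counts only, with unstranded counts and with the replicate block, and 8 with neuron marker scaling and with the filter of 1 CPM in 3 libraries. Genes called higher among all tested numbered 2945 of 18132 in the setting reported. With total counts they were 2089 of 18132, with unstranded counts 2832 of 20497 and with the replicate block 2173 of 18132. With neuron marker scaling they were 8523 of 18132, and with the 1 CPM filter 3341 of 15333. Leaving out each library gave 2 to 4 members called higher, and this count was 2 without activated replicate 1. No setting called a member lower. Over all tested genes, neuron marker scaling gave 8523 higher and 740 lower calls, and leaving out each library gave 1975 to 3304 higher and 2846 to 3908 lower. Of 128 single values of the members, 108 kept their call status, 12 lost a call and 8 gained one, and none changed sign. Deviations of same-numbered libraries from their group means correlated at −0.01, −0.18 and −0.21, and those of differently numbered libraries at −0.04 to 0.21. Deviations within a group of 3 sum to 0, so these values cannot settle whether the libraries were paired. With the replicate block Cacna1a and Cacna1g remained called and Cacna1d (0.25) and Cacna1h (0.19) did not, and the calls of Nalcn (0.17), Cacnb3 (−0.21) and Erc2 (−0.16) were lost. Family reads in the shallowest library numbered 36038, and Cacna1d, whose lowest library held 1785 reads, had the widest coefficient of variation between replicates, 10.9%. Cacna1h held fewer reads in activated replicate 1, 1692, yet its coefficients of variation were 2.62% for the control label and 0.905% for the activated label.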

Other observations

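Summed reads of the 8 alpha-1 genes over summed reads of the 4 beta genes, a ratio chosen after the fold changes were seen and given as a description, were 5.49, 5.36 and 5.19 in replicates 1 to 3 labelled control and 7.10, 7.58 and 7.65 in those labelled activated. The ratio needs no scaling between libraries, and its mean was 39.3% higher under the activated label with no overlap. The ratio to the 5 alpha2delta genes was 2.72 ± 0.106 for the control label and 2.84 ± 0.118 for the activated label (SD, n = 3), and the groups overlapped.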
